A study of Mus musculus with 15 samples.

Results

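Transcripts of 9 lysosomal genes were followed through germinal centre B cell subsets and plasmablasts labelled GC-PB: Ifi30, Ctss, Ctsb, Ctsh, Ctsz, Ctsc, Ctsd, Lgmn and Cst3. They were taken by symbol from the deposited expression table, which gave 9 of its 23420 genes, 1 row each. All 9 passed the filter on low values. The table was read for DZ, Fraction 3, Fraction 2, Fraction 1 and GC-PB, with 3 libraries per group, at equal library totals.

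A B cell that has bound antigen takes it into endosomes and lysosomes, where proteases cut it into peptides for MHC class II. GILT, the product of Ifi30, reduces disulfide bonds so that folded antigen can be cut. Cathepsin S trims the invariant chain that fills the class II groove, legumain cuts after asparagine, and cystatin C, the product of Cst3, is a secreted inhibitor of cysteine cathepsins. The same proteases also carry out general lysosomal turnover, so their transcripts are not particular to antigen presentation.

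Every library held RNA of 100 cells sorted on day 12 from draining lymph nodes of C57BL6 hosts. The hosts had received CD45.1+ donor B cells that carry the B1-8hi (KI/+) receptor, which binds the hapten NP, and were immunized with NP-CGG/CFA. Donors of 4 groups also carried a Bcl6-YFP (KI/+) reporter, and these groups were gated as B220+ CD45.1+ CD38lo GL7hi germinal centre cells. DZ (dark zone) was CXCR4hi CD86lo. The other 3 were CXCR4lo CD86hi light zone cells, of which Fraction 3 was Bcl6hi CD69lo, Fraction 2 Bcl6hi CD69hi and Fraction 1 Bcl6lo CD69hi. GC-PB were CD138hi CD44hi plasmablasts marked by tdTomato, from B1-8hi donors with S1pr2-ERT2cre Tg and ROSA-Ai14 (KI/+), in hosts given tamoxifen on days 6, 7 and 8. The mark shows that Cre was active in a cell that expressed S1pr2 around those days, and GC-PB therefore differ from the 4 other groups in donor genotype and drug as well as in cell state. Ages are not given in the sources used here.

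The labels call the replicates independent library preparations and do not name separate animals. The p-values therefore set differences of group means only against the spread between libraries within groups, estimated over all 5 groups. That spread may be technical. Each library pools its cells, and fewer cells with a transcript cannot be told apart from less transcript per cell. Deposited totals ran from 27942 to 115088 and were highest in Fraction 1 (110747 ± 3890, SD, n = 3), against 40215 in Fraction 2 and 72158 in GC-PB. Most values above 0 (91.0% to 92.6%) were whole multiples, within 0.02 of a unit, of the most frequent value of their library. That unit, called a step here, is read as 1 counted molecule, which the labels do not state. Counted in steps, mean totals were 348639 in Fraction 1 and 350126 in Fraction 2, and lowest in GC-PB (201517). The mean step was 0.318 in Fraction 1, 0.115 in Fraction 2 and 0.358 in GC-PB. The deposited gap between Fraction 1 and Fraction 2 thus lies in the size of the step. Xist was above 0 in the 6 Fraction 1 and GC-PB libraries alone, and Ddx3y was at 3.91 to 6.21 in the 9 others and at most 0.0406 in those 6. Fraction 1 vs Fraction 2 crosses this divide with all of its libraries, so that a change there cannot be told apart from the divide itself. The sort markers followed the labels for Bcl6 (21.3 in Fraction 3, 3.97 in Fraction 1, 0 in GC-PB), Cxcr4 and Sdc1. Cd69 was 2.91 ± 0.884 in Fraction 2, 2.65 ± 0.871 in Fraction 1 and 2.17 ± 0.501 in Fraction 3. Libraries of both CD69hi fractions overlapped with Fraction 3.

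RefSeq windows from 250 bases before to 50 bases after a start site were given for 7 of the 9 genes (GRCm38.p6). They are shown because CACGTG, the core that MiT/TFE factors of lysosomal gene control and MYC both recognise, was in the windows of 3 of these 7 genes, Ctsd, Ifi30 and Lgmn, against 7.15% of all 32851 windows. The word reads the same on both strands. Here and below a gene counts if any of its windows holds a word, while the percentages are of single windows. A gene with 2 listed starts, such as Lgmn, therefore has more room for a match. Ctsd held it at 2 places, 245 and 98 bases before its start, Ifi30 196 bases before, and Lgmn 49 bases before the second of 2 listed starts. The capitals mark CACGTG in the first 4 lines and the word of the interferon-stimulated response element in the last, each written 5′ to 3′ on the strand of the gene.
Ctsd, chr7:142388055-142388077, minus strand, upstream of the annotated gene: tccccCACGTGacctgtatccag
Ctsd, chr7:142387908-142387937, minus strand, in an annotated exon: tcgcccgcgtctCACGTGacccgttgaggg
Ifi30, chr8:70766842-70766871, minus strand, upstream of the annotated gene: atccaaaaacttCACGTGaccagacatgct
Lgmn, chr12:102439124-102439153, minus strand, in an annotated intron: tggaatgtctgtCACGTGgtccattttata
Ctss, chr3:95526755-95526784, plus strand, upstream of the annotated gene: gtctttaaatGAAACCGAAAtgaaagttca
The interferon-stimulated response element, searched on both strands, was in the Ctss window only among the 7 and in 3.44% of all windows. TGACGT, a core of sites of CREB and ATF factors, was in 0 of the 7 and in 7.51% of all. GAGGAA, a core of PU.1 type ETS sites, was in 4 of the 7 (Cst3, Ctsc, Ctss, Ifi30) and 28.3% of all, and CCAAT in 2 (Ctsz, Lgmn) and 37.4%, each on both strands. These letter matches are descriptions of the windows. The genes with CACGTG did not share 1 course across the groups: Ctsd and Lgmn were highest in GC-PB, where Ifi30 was at its lowest mean.

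Levels below are deposited signal values at equal library totals, given for replicates 1, 2 and 3 of a group. Changes are differences of log2(level + 1) ± SE from limma with Benjamini-Hochberg adjusted p over 11190 genes. They understate ratios of low genes, so ratios of group means are given beside them. "Higher" and "lower" calls mean an adjusted p under 0.05.

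Ifi30 (chromosome 8, 70762774 to 70766663), which encodes the thiol reductase GILT, had a course of its own: it climbed through the light zone fractions and was low in plasmablasts. Its level was 5.93, 6.76 and 7.38 in DZ and 15.5, 14.7 and 13.9 in Fraction 3. It was 17.9, 17.6 and 16.5 in Fraction 2 and 26.9, 27.1 and 26.8 in Fraction 1. In GC-PB it was 5.36, 7.09 and 5.58. No light zone library overlapped with DZ or GC-PB, and the 3 light zone fractions did not overlap with each other. Fraction 3 was 2.20 times DZ (1.03 ± 0.12, adjusted p = 0.000175). Fraction 1 was 1.55 times Fraction 2 (0.61 ± 0.12, adjusted p = 0.00247), a pair that lies across the Xist divide. GC-PB was 4.49 times lower than Fraction 1 (-2.004 ± 0.12, adjusted p = 2.71e-11). The 3 calls stood in every alternative that was run. Fraction 2 vs Fraction 3 was 0.23 ± 0.12 (adjusted p = 0.51) and was called as deposited (0.62, adjusted p = 0.0279). GC-PB and DZ, the lowest neighbours, differed by 0.14 (adjusted p = 0.407), with overlapping libraries.

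**Figure D1:**
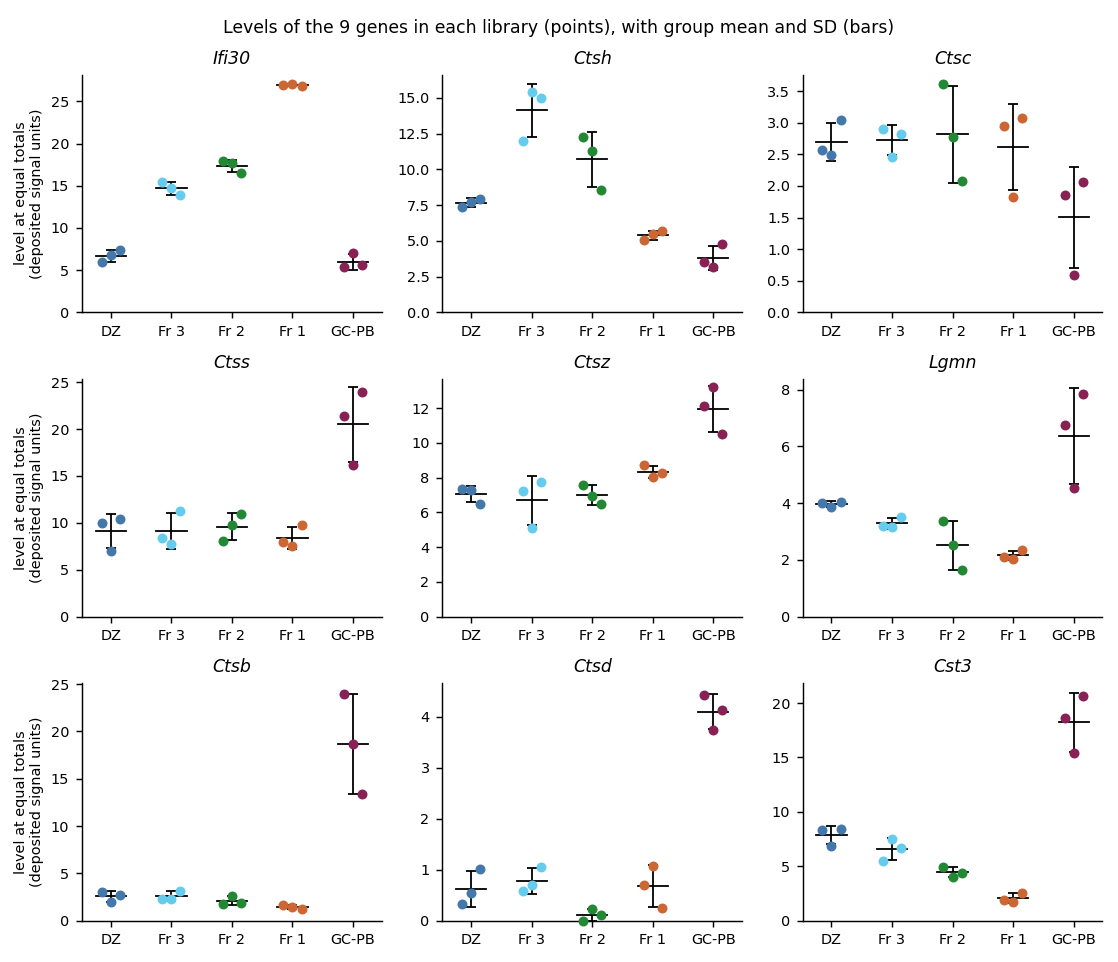
Level of each of the 9 genes (vertical axis, deposited signal units at equal library totals, starting at 0) in the 5 groups (horizontal axis; Fr, Fraction). Points are libraries, the long bar is the group mean and the error bar the SD, n = 3. Ifi30 peaks in Fraction 1 at 26.8 to 27.1, Ctsh peaks in Fraction 3, and Ctss, Ctsb, Ctsd, Ctsz, Lgmn and Cst3 have their highest mean in GC-PB.

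Of the cysteine cathepsins, Ctss and Ctsb passed no test at the steps between germinal centre groups at equal totals and were high in GC-PB. Ctss (chromosome 3, 95526786 to 95556403) encodes the protease of the invariant chain. Its 12 germinal centre libraries lay between 7.04 and 11.3, with group means of 9.13 in DZ, 9.12 in Fraction 3, 9.60 in Fraction 2 and 8.42 in Fraction 1. In GC-PB it was 21.4, 16.2 and 24.0, above each of those libraries. GC-PB was 2.44 times Fraction 1 (1.18 ± 0.17, adjusted p = 1.20e-05; 0.56 as deposited, adjusted p = 0.0205). The 3 other neighbours in the order of its levels did not pass (adjusted p of 0.777 to 1).

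Ctsb (chromosome 14, 63122462 to 63145923), whose product cathepsin B is an endopeptidase and a carboxypeptidase, had the largest ratio between GC-PB and Fraction 1 among the 9 genes. Its germinal centre libraries ran from 1.23 to 3.17 and rested on 10 to 23 steps each. The GC-PB libraries held 24.0, 18.7 and 13.4, or 103, 95 and 65 steps. GC-PB was 12.8 times Fraction 1 (2.97 ± 0.20, adjusted p = 1.52e-10; 2.67 as deposited). Fraction 1 (1.46 ± 0.211) was the lowest group and had no overlap with Fraction 2 (2.11 ± 0.474), but that difference did not pass (-0.33 ± 0.20, adjusted p = 0.388; 0.70 and called as deposited). Ctsb overlaps Fdft1, which is on the opposite strand and in the table, and whether counting used strand is not stated.

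Ctsh and Ctsz were high in different groups. Ctsh (chromosome 9, 90054152 to 90076089) encodes cathepsin H, an aminopeptidase. It was 7.37, 7.73 and 7.96 in DZ, 12.0, 15.4 and 14.97 in Fraction 3, and 12.3, 11.3 and 8.54 in Fraction 2. It was 5.06, 5.48 and 5.66 in Fraction 1 and 3.49, 3.15 and 4.75 in GC-PB. At equal totals the peak was thus in the Bcl6hi light zone fractions, with Fraction 1 and GC-PB below DZ in every library. Fraction 2 vs DZ did not pass (0.42 ± 0.15, adjusted p = 0.169). As deposited the highest mean was in Fraction 1 (14.8, against 10.5 in Fraction 3 and 10.7 in Fraction 2). GC-PB (6.45) then also had a mean above DZ (6.04). Fraction 3 was 1.84 times DZ (0.79 ± 0.15, adjusted p = 0.0101), a call that was lost as deposited (0.71) and without DZ replicate 1 (0.77), Fraction 3 replicate 2 (0.73) or Fraction 3 replicate 3 (0.75). Fraction 1 was 1.98 times lower than Fraction 2 at equal totals (-0.86 ± 0.15, adjusted p = 0.00106), but as deposited it was higher (0.45, adjusted p = 0.0264). GC-PB was lower than Fraction 1 (-0.43 ± 0.15, adjusted p = 0.0334), a call close to the threshold. It was lost on the median ratio scale (-0.19), with the most abundant genes left out of the total (-0.33), with a pseudocount of 3 (-0.31) and with only the 2 groups in the fit (adjusted p = 0.0788). It was also lost without Fraction 1 replicate 2 (-0.42), Fraction 1 replicate 3 (-0.40), GC-PB replicate 1 (-0.39) or GC-PB replicate 2 (-0.33). Fraction 2 and Fraction 3 overlapped (adjusted p = 0.343).

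Ctsz (chromosome 2, 174427493 to 174439039) encodes cathepsin Z, a carboxypeptidase, and had the narrowest spread of group means of the 9 genes, 1.79-fold from lowest to highest. Means were 7.06 in DZ, 6.69 in Fraction 3, 6.99 in Fraction 2 and 8.34 in Fraction 1. GC-PB was 12.1, 13.2 and 10.5, above the other 12 libraries (5.08 to 8.71). It was 1.43 times Fraction 1 (0.47 ± 0.14, adjusted p = 0.0137), but as deposited the sign turned (-0.18, adjusted p = 0.397), and the call was lost without GC-PB replicate 2 (0.40). The 3 steps between germinal centre groups did not pass at equal totals. Ctsz overlaps the end of Nelfcd on the other strand.

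Ctsc (chromosome 7, 88278085 to 88310888) encodes cathepsin C, the dipeptidyl peptidase that activates granule serine proteases. It was between 1.83 and 3.61 in the germinal centre libraries, with group means of 2.62 to 2.82 and no step that passed (adjusted p of 0.911 to 1). GC-PB was 1.86, 0.591 and 2.07, on only 8, 3 and 10 steps. It missed the threshold against Fraction 1 (-0.57 ± 0.23, adjusted p = 0.0589) and was called lower there in several alternatives. These were the deposited scale (-1.27), Rn45s in the total (-0.61, adjusted p = 0.0398), only genes with a mean of at least 1 (adjusted p = 0.0313), the replicate block (adjusted p = 0.0423), and the fits without Fraction 1 replicate 2 (-0.74), GC-PB replicate 1 (-0.69) or GC-PB replicate 3 (-0.74). The range of its adjusted p over all alternatives was 0.000382 to 0.365. Against DZ, Fraction 3 and Fraction 2 it was called lower at equal totals, across the Xist divide (adjusted p = 0.0416, 0.0368 and 0.0324). These calls are close to the threshold and were not run in the alternatives.

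The aspartic protease Ctsd (chromosome 7, 142375911 to 142388038; cathepsin D) was scarce outside GC-PB. It was 0.32, 0.552 and 1.01 in DZ, 0.579, 0.701 and 1.06 in Fraction 3, 0, 0.231 and 0.109 in Fraction 2, and 0.706, 1.07 and 0.246 in Fraction 1. These are 0 to 10 steps per library, so only large differences could be seen among them, and none of the 3 steps passed at equal totals. Fraction 1 vs Fraction 2 (0.56 ± 0.22, adjusted p = 0.129) was called higher as deposited (1.28, adjusted p = 0.000528) and with only the 2 groups in the fit (adjusted p = 0.0451). GC-PB held 4.42, 3.74 and 4.13, or 19, 19 and 20 steps, with no overlap with any other group. It was 6.07 times Fraction 1 (1.63 ± 0.22, adjusted p = 4.32e-06; 1.55 as deposited). Fraction 2, with 3 steps in all, is at the limit that counting allows, and no ratio to it is given. The 3′ part of Ctsd overlaps Gm49369 on the same strand, a gene with no row of its own, so reads there could not be told apart.

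Lgmn (chromosome 12, 102394084 to 102439813), which encodes legumain, stepped down in mean from DZ to Fraction 1 at equal totals and was highest in GC-PB. Levels were 4.004, 3.86 and 4.05 in DZ, 3.18, 3.15 and 3.52 in Fraction 3, 3.37, 2.54 and 1.64 in Fraction 2, and 2.12, 2.04 and 2.34 in Fraction 1. No single step passed (adjusted p of 0.587 to 0.804), while the full distance from DZ to Fraction 1 did (-0.65 ± 0.19, adjusted p = 0.017), across the Xist divide. This order depended on the scale. As deposited the mean was 3.13 in DZ, 2.46 in Fraction 3, 2.50 in Fraction 2 and 5.94 in Fraction 1. GC-PB was 6.75, 4.53 and 7.85, which was 2.94 times Fraction 1 (1.19 ± 0.19, adjusted p = 3.30e-05; 0.73 as deposited). Across the Xist divide it was 1.61 times DZ (0.54 ± 0.19, adjusted p = 0.0306).

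The inhibitor Cst3 (chromosome 2, 148871722 to 148875692; cystatin C) ran opposite to Ifi30. It was 8.33, 6.90 and 8.39 in DZ, 5.50, 7.53 and 6.69 in Fraction 3, 4.94, 4.04 and 4.38 in Fraction 2, and 1.88, 1.72 and 2.59 in Fraction 1. In GC-PB it was 18.6, 15.4 and 20.7. DZ and Fraction 3 overlapped, and the other neighbours did not. Within the 9 libraries on 1 side of the Xist divide, Fraction 2 was lower than DZ (-0.70 ± 0.16, adjusted p = 0.0129), with neither step alone passing (adjusted p = 0.676 and 0.212). Fraction 1 was 2.16 times lower than Fraction 2 at equal totals (-0.84 ± 0.16, adjusted p = 0.00157), with the opposite sign and no call as deposited (0.28, adjusted p = 0.174). GC-PB was 8.83 times Fraction 1 (2.65 ± 0.16, adjusted p = 2.24e-11; 2.26 as deposited). Across the Xist divide it was 2.31 times DZ (1.11 ± 0.16, adjusted p = 7.66e-06).

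Read by step, few of the 9 genes passed the test between DZ, Fraction 3 and Fraction 2, and most passed it at the plasmablast step. In Fraction 3 vs DZ, 2 of 9 were called higher (Ifi30, Ctsh) and 0 lower, where 1.05% of all tested genes were called, 0.572% higher and 0.483% lower. The median change was 0.01 over the 9 genes and 0 over all genes. In Fraction 2 vs Fraction 3, limma called 0 of 9, with 3 at an unadjusted p under 0.05 (Cst3, Ctsd and Ctsh, each toward lower). Over all genes 0.688% were called, 0.438% higher and 0.25% lower, and 11.2% had an unadjusted p under 0.05. The median change was -0.21 for the 9 genes and 0.00 for all genes. As deposited, 1 gene of the 9, Ifi30, was called higher in that step.

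In Fraction 1 vs Fraction 2, 1 of 9 was called higher (Ifi30) and 2 lower (Ctsh, Cst3), beside 9.03% of all genes, 3.79% higher and 5.25% lower. This split depended on the scale: as deposited 8 were higher and 0 lower, with Cst3 the one not called, while all genes went from 424 higher and 587 lower to 6120 higher and 63 lower. The median of all genes was -0.04 at equal totals and 0.64 as deposited. The deposited changes of Ifi30 (2.03), Ctsz (1.58), Ctsd (1.28), Ctss (1.19), Ctsc (1.09) and Lgmn (1.01) lay above that median. Ctsb (0.70) lay near it, and Ctsh (0.45) and Cst3 (0.28) below it. The added 1 compresses changes of low genes, so the median understates the shift that scaling alone gives a gene at a higher level. A change above it is therefore not read as a rise. Of the genes above it only Ifi30 was called at equal totals, where Ctss (-0.17), Ctsc (-0.08) and Lgmn (-0.12) were below 0.

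In GC-PB vs Fraction 1, 6 of 9 were called higher (Ctsb, Cst3, Ctsd, Lgmn, Ctss, Ctsz) and 2 lower (Ifi30, Ctsh), where 36.3% of all genes were called, 14.1% higher and 22.3% lower. The median change was 1.18 for the 9 genes and -0.06 for all genes. As deposited the counts were 5 higher and 3 lower, on the median ratio scale and with the most abundant genes left out of the total 6 and 1, and with Rn45s in the total 6 and 3. Among all genes the split was 1573 higher and 2491 lower at equal totals, 2092 and 1955 on the median ratio scale, and 1250 and 5130 as deposited, with a median of -0.42. Both groups of this step lie on the same side of the Xist divide. The step cannot be told apart from the difference in donor genotype and tamoxifen.

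Calls between groups that are not consecutive, given above for the order of levels, stand beside 3.5% of all genes called in either direction in Fraction 2 vs DZ and 21.1% in Fraction 1 vs DZ. The share was 35.9% in GC-PB vs DZ, 37% in GC-PB vs Fraction 3 and 35.8% in GC-PB vs Fraction 2. All of these pairs but Fraction 2 vs DZ cross the Xist divide with all of their libraries. The alternatives were run only for consecutive groups, so these calls were not checked in them.

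**Figure D2:**
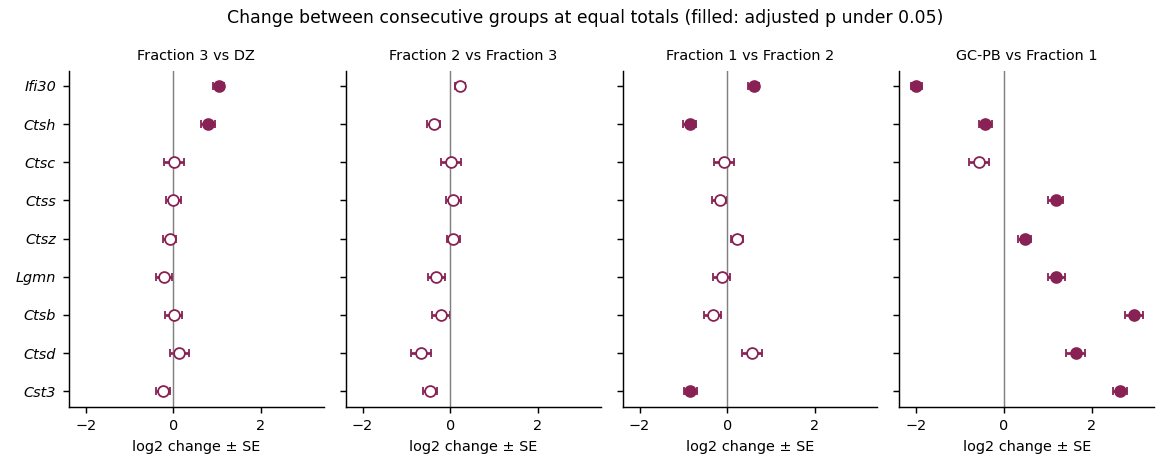
Change of each gene (rows) at the 4 steps between consecutive groups (panels); the horizontal axis is the difference of log2(level + 1) at equal totals and the bars are its SE. Filled points have an adjusted p under 0.05: 2 in Fraction 3 vs DZ, 0 in Fraction 2 vs Fraction 3, 3 in Fraction 1 vs Fraction 2 and 8 in GC-PB vs Fraction 1.

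**Figure D3:**
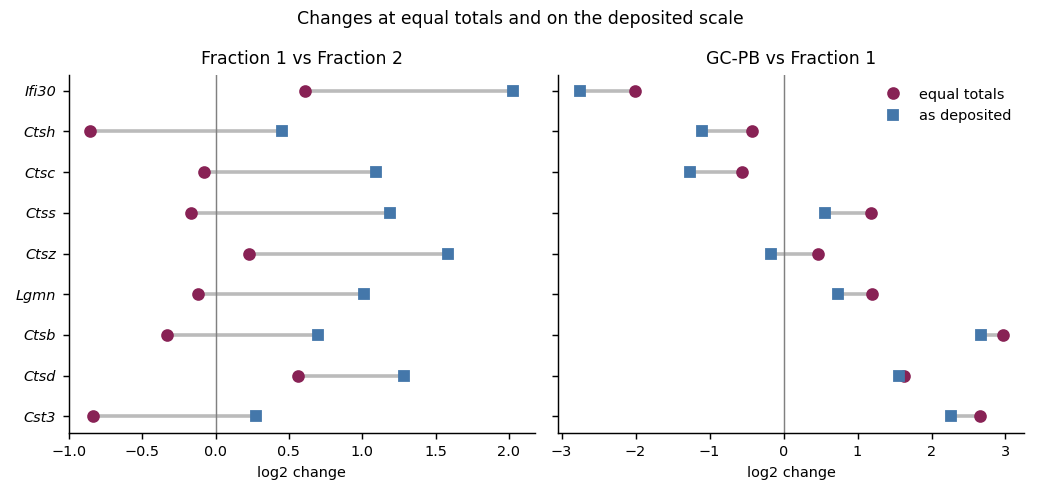
The same changes at equal totals (circles) and on the deposited scale (squares), joined by a line for each gene, for Fraction 1 vs Fraction 2 (left) and GC-PB vs Fraction 1 (right); the horizontal axis is the log2 change. On the left all 9 squares lie above 0 while 6 circles lie below it, and on the right only Ctsz changes side.

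Ratios of 2 genes inside 1 library do not depend on how libraries are scaled, and 4 were formed after the levels had been seen. They compare groups, not the amounts of the 2 transcripts. Ifi30 to Cst3 was 0.857 ± 0.136 (SD, n = 3) in DZ, 2.28 ± 0.466 in Fraction 3, 3.93 ± 0.391 in Fraction 2, 13.5 ± 2.78 in Fraction 1 and 0.340 ± 0.106 in GC-PB. No 2 groups overlapped in this ratio. Fraction 1 (10.4 to 15.8) was thus the group with most reductase relative to inhibitor transcript and GC-PB (0.270 to 0.462) the group with least. Ctsb to Ctss was 0.127 to 0.306 in the germinal centre libraries and 1.12, 1.16 and 0.560 in GC-PB. Cst3 to Ctss went from 0.875 ± 0.0929 in DZ to 0.243 ± 0.0199 in Fraction 1 and was 0.894 ± 0.0494 in GC-PB, inside the DZ range of 0.806 to 0.980. Ctsh to Ctsz was 2.21 ± 0.728 in Fraction 3 and 0.326 ± 0.111 in GC-PB. Together the 9 genes took 0.116% to 0.169% of the total in the germinal centre libraries and 0.214% to 0.254% in GC-PB.

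**Figure D4:**
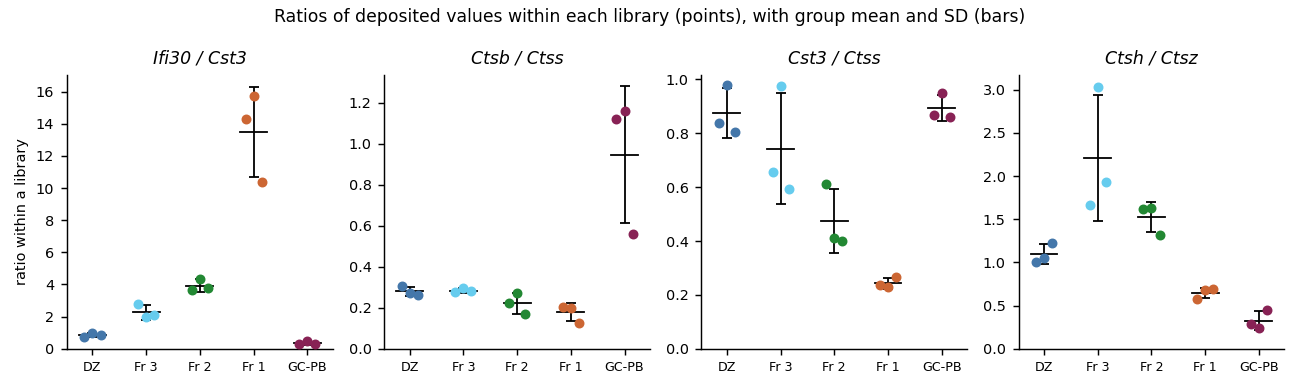
Ratio of the deposited values of 2 genes in the same library (vertical axes, starting at 0) for the 5 groups (horizontal axes), with libraries as points, group means as long bars and SD as error bars, n = 3. Ifi30 to Cst3 rises in mean from 0.857 in DZ to 13.5 in Fraction 1 and is 0.340 in GC-PB.

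Across the 15 libraries Ifi30 and Cst3 had a Pearson r of -0.91 on log2(level + 1), Ifi30 and Lgmn -0.85, and Ctsh and Ctsz -0.82. Lgmn and Cst3 were at 0.91, Ctsb and Ctsd at 0.91, and Ctss and Ctsb at 0.90. The points share 5 groups and the scaling, and the values are descriptions. By the same measure, among 1349 or 1350 genes with a mean of at least 5, the genes most like Ifi30 were Mybbp1a (0.96), Rnps1 (0.94) and Bcl2a1b (0.93). Mybbp1a, a nucleolar protein gene, went from 3.71 in DZ to 18.3 in Fraction 1 and was 2.26 in GC-PB. Ctsb was most like Edem1 (0.98), Itm2b (0.98) and Fosb (0.97), and Ctss most like Laptm4a (0.93), Edem1 (0.92) and Prdx4 (0.92). Edem1, of endoplasmic reticulum associated degradation, was 3.03 in Fraction 1 and 77.0 in GC-PB. For Ctsd they were Jund (0.95), Ssr1 (0.94) and Derl1 (0.94), and for Ctsz Rpl36al (0.91), Tapbp (0.91) and Kdelr2 (0.91). For Ctsh they were Mycbp2 (0.96), Hvcn1 (0.95), a proton channel gene of B cells, and Sipa1 (0.95). Hvcn1 was 26.2 in Fraction 3 and 5.36 in GC-PB. Cst3 was most like Serinc3 (0.98), Tspan13 (0.98) and Ero1lb (0.97), and Lgmn most like Cst3, Ifi27l2a (0.91) and Tspan13 (0.90). Likeness was lowest for Ctsc, with Creb1 (0.82), Calm2 (0.79) and Dusp2 (0.79).

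Other lysosomal genes were followed in lists drawn up by function. In GC-PB vs Fraction 1, 22 of 42 tested lysosomal hydrolase genes were called higher and 2 lower, against 14.1% and 22.3% of all genes, with a median change of 0.58 (21 and 9 as deposited). Gm2a, the activator of ganglioside breakdown, was 7.68, 5.32 and 5.37 in GC-PB and 1.29, 1.29 and 0.616 in Fraction 1 (1.79 ± 0.21, adjusted p = 4.96e-07). Rnaset2b, a lysosomal ribonuclease gene, was 10.2 ± 2.15 against 3.31 ± 0.607 (1.37).

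Lysosomal membrane and lipid handling genes were divided. Of 26 tested, 8 were called higher in GC-PB and 3 lower, against 14.1% and 22.3% of all genes. The median change was 0.12, and 8 and 6 were called as deposited. Npc2, a cholesterol carrier of the lysosome lumen, was 14.9, 13.6 and 12.4 in GC-PB and 2.00, 1.18 and 1.11 in Fraction 1 (2.61 ± 0.21, adjusted p = 2.12e-09). Laptm4a was 17.4 ± 2.54 against 2.47 ± 0.116 (2.40). Its relative Laptm5, which is expressed in blood cells, was 2.44 ± 0.621 in GC-PB against 10.6 ± 2.38 in Fraction 1 (-1.75 ± 0.16, adjusted p = 1.74e-08), and Lamp1, a main lysosomal membrane glycoprotein gene, was 2.06 ± 0.419 against 5.27 ± 0.631 (-1.04). Calls in both directions were thus found in 1 list. The 6 hydrolase and membrane genes named here for this step kept their calls in every alternative run.

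Of the 18 tested subunits of the V-ATPase, the proton pump that acidifies the lysosome, 8 were called higher in GC-PB and 0 lower, with a median of 0.22. As deposited 4 of the 18 were higher and 5 lower. At equal totals 14.1% of all genes were called higher at this step and 22.3% lower. Atp6v0c was 6.63 ± 0.575 against 1.80 ± 0.388 (1.45 ± 0.17, adjusted p = 7.33e-07) and Atp6v0a1 4.40 ± 0.851 against 1.05 ± 0.274 (1.40), and both were called on each scale. Lysosomal sorting and trafficking had 1 higher (Ap3d1, 0.72, not called as deposited) and 3 lower of 22, Gga2 (-0.89) and Lyst (-0.80) among them, against 0 and 11 as deposited. MiT/TFE factors and mTORC1 lysosome control had 2 higher and 4 lower of 16, against 2 and 8 as deposited. At equal totals these are 12.5% and 25%, near the shares over all genes. The higher calls were Slc38a9 (0.80, at a mean of 0.995 in GC-PB) and Lamtor2 (0.64, lost in 8 alternatives). Tfeb, which encodes a transcription factor that activates lysosomal genes, was 4.28 ± 0.845 in Fraction 2, 1.52 ± 0.405 in Fraction 1 and 0.290 ± 0.152 in GC-PB. Its change was -1.07 ± 0.21 in Fraction 1 vs Fraction 2 (adjusted p = 0.00278; -0.04 and not called as deposited) and -0.96 ± 0.21 in GC-PB vs Fraction 1 (adjusted p = 0.00109). Flcn, a regulator of TFE factors at the lysosome, was lower in GC-PB as well (-0.92).

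**Figure D5:**
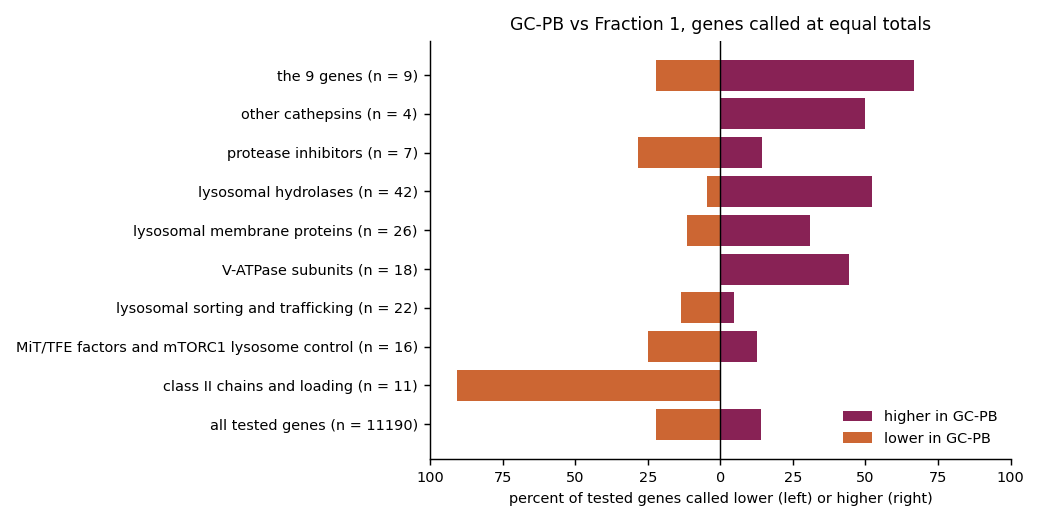
Percent of the tested genes of each list (rows, with the number tested) that limma called higher in GC-PB than in Fraction 1 (right of 0) or lower (left of 0) at equal totals. All tested genes, at 14.1% higher and 22.3% lower, are the bottom row; of the 11 class II genes 10 are on the lower side, and of the 42 hydrolase genes 22 are on the higher side.

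Of 11 other cathepsin genes 4 were tested, of which 2 were called higher and 0 lower in GC-PB, against 0 and 1 as deposited. At equal totals 14.1% of all genes were called higher at this step and 22.3% lower. Ctse was 0.931, 10.05 and 9.91 in GC-PB against 0.824, 1.505 and 1.48 in Fraction 1 (1.45 ± 0.42, adjusted p = 0.00905). GC-PB replicate 1 stood with Fraction 1, and the call was lost without GC-PB replicate 2 or 3 and as deposited (1.11). Ctso was lower in Fraction 1 than in Fraction 2 (1.04 against 2.83, -0.91, not called as deposited) and higher in GC-PB (2.29, 0.66), a call lost as deposited and without Fraction 1 replicate 3, GC-PB replicate 1 or GC-PB replicate 3. Ctsl was at most 0.413 in any library. Of 7 tested protease inhibitors, 1 was called higher (Cst6) and 2 lower (Serpinb9, Serpinb1a) in GC-PB, each at a mean under 1 in both groups, against 1 and 5 as deposited. Cst6 had a mean of 0 in DZ and in each light zone fraction, and it passed the filter on low values only through GC-PB. Its mean of 0.212 there is at the level of 1 step in these libraries (0.197 to 0.233), and its call is not read as a change. The Serpinb1a call was lost without Fraction 1 replicate 3 or any 1 of the GC-PB libraries. The cytosolic cathepsin inhibitor Cstb was 3.35 against 3.37 (-0.01, adjusted p = 0.991).

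The class II list holds the chains that present what these enzymes cut, and their loading factors. In Fraction 3 vs DZ, 6 of 11 were called higher, H2-Aa at 0.73 and H2-Ab1 at 0.59, where 0.572% of all genes were called higher. The median change was 0.69. As deposited 0 of the 11 were called, with a median of 0.62. The class II count at equal totals was 3 to 5 without 1 of the 6 libraries. The other pathway lists had 0 calls at this step, where 1.05% of all genes were called in either direction. In Fraction 1 vs Fraction 2, 4 were called lower at equal totals, 1 on the median ratio scale, and 9 higher as deposited. At equal totals 5.25% of all genes were called lower there. In GC-PB vs Fraction 1, 10 of 11 were called lower on both the equal total and median ratio scales and 11 as deposited. At equal totals 22.3% of all genes were called lower at that step. H2-Aa was 15.9 ± 3.25 against 97.1 ± 7.83 (-2.55 ± 0.12, adjusted p = 5.41e-13) and Ciita, the class II transactivator gene, was listed at 0 in all 3 GC-PB libraries. Cd74, which encodes the invariant chain that cathepsin S trims, was the one not called at equal totals (239 ± 58.6 against 267 ± 19.2; -0.19, adjusted p = 0.279). At this step Ifi30 and Ctsh were called in the direction of the class II chains, and the 6 other called genes of the 9 in that of most called hydrolases. The Ctsh call was close to the threshold. At the step before, Ifi30 was called higher at equal totals (0.61), where the 4 class II calls were lower.

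At the step into Fraction 1, where 3.79% of all genes were called higher and 5.25% lower at equal totals, counts of the lysosomal lists changed with the scaling. With totals made equal, 0 of 42 hydrolases were called higher and 2 lower, among them Acp5 (-0.94). Acp5 was not called as deposited and lost its call without each of 5 of the 6 libraries, all but Fraction 2 replicate 1. Laptm5 was 10.6 against 21.8 (-0.98; 0.39 and not called as deposited). M6pr, a mannose 6-phosphate receptor that sorts hydrolases, was 7.01 ± 0.762 in Fraction 1 against 4.08 ± 0.641 (0.66 ± 0.16, adjusted p = 0.0122), without a call when Fraction 2 replicate 1 or Fraction 1 replicate 3 was left out. As deposited 19 of 42 hydrolases, 9 of 26 membrane genes, 16 of 18 V-ATPase subunits, 18 of 22 sorting genes and 11 of 16 MiT/TFE and mTORC1 genes were called higher and 0 lower, beside 6120 higher and 63 lower of all 11190 genes. In Fraction 2 vs Fraction 3 each of these lists had 0 calls.

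Cathepsins and cystatin C are abundant in macrophages and dendritic cells, so markers of those cells were read in the same libraries. Of 15 macrophage markers in the table, 10 were at 0 in all GC-PB libraries, among them Csf1r, Lyz2, Mertk, Fcgr1 and Cd14. C1qa was 0, 0.394 and 0 and C1qb 0.233, 0 and 0, or 1 or 2 steps. The summed level of the list was 24.2 to 27.5 in DZ, 25.8 to 27.1 in Fraction 3, 12.4 to 15.5 in Fraction 2, 2.94 to 4.06 in Fraction 1 and 14.2 to 40.0 in GC-PB. Nearly all of it was Apoe, a lipoprotein gene that many cell types can express, at 13.7, 14.0 and 39.9 in GC-PB and 2.82, 3.44 and 3.94 in Fraction 1. At equal totals Apoe changed in the direction of Cst3 at the last 2 steps (-1.78 and 2.25), and its part in the Cst3 values was not tested. GC-PB replicate 3, the one high in Apoe, had the highest Cst3, Ctss and Lgmn of the 3 but the lowest Ctsb. The 6 higher calls in GC-PB also stood without it.

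Of 10 dendritic cell markers, Zbtb46, Clec9a, Itgax, Siglech, Clec10a and Cd209a were at 0 in all GC-PB libraries. Xcr1 was 2.69, 2.50 and 2.13 there against a mean of 0.348 in Fraction 1 (1.36, adjusted p = 6.65e-06 by limma). Of 6 tested markers it was the 1 called higher in GC-PB and 3 were called lower, against 14.1% and 22.3% of all genes. Its part in the values of the 9 genes was not tested. The summed level of the 10 markers was 2.31 to 3.98 in DZ, 4.29 to 5.48 in Fraction 3, 5.43 to 7.85 in Fraction 2, 18.6 to 19.1 in Fraction 1 and 3.48 to 3.85 in GC-PB. In Fraction 1 it was mostly Fscn1 (16.7 ± 0.225). At the step into Fraction 1, 2 of 6 tested markers were called higher (Fscn1, Ccr7) and 1 lower (Flt3). Over all genes 3.79% were called higher and 5.25% lower. The Ccr7 and Flt3 calls were lost in 7 and 10 alternatives. Clec9a, Clec10a and Cd209a were at 0 in Fraction 1, and Xcr1 had its lowest mean there. The group means of the summed level and of Ifi30 were both highest in Fraction 1, for the sum mostly through Fscn1. The part of these markers in the Ifi30 values was not tested. Granulocyte markers summed to at most 1.30 in any library, with S100a8, Elane, Mpo, Camp and Ngp at 0 in every group. T cell markers summed to 9.71 to 11.4 in GC-PB, nearly all of it Cd28 (9.90), with Cd3e, Cd3d and Cd4 at 0 there, and to at most 5.88 elsewhere. Stromal and follicular dendritic cell markers, mostly Fcer2a, which B cells also express, summed to at most 16.4, with Col1a1, Pdgfrb and Pdpn at 0 in every group. Germinal centre B cell markers summed to 102 to 104 in DZ and 7.45 to 9.71 in GC-PB. B cell markers summed to 79.3 to 265 in every group, and plasma cell markers to 2872 to 4145 in GC-PB and at most 75.9 elsewhere.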

How the data were processed

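RNA of 100 cells per library was reverse transcribed with an oligo-dT primer that carries molecular barcodes, with ERCC spike-in added, per the labels' protocols. TopHat2 and mm10 are named, without version or role, in the submitters' processing notes; how the values were scaled, and whether strand or the spike-in was used, is not given in the sources used here. The deposited values are a signal per gene made by the authors, not whole counts.

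Rn45s was left out and each of 15 libraries was scaled to the median total. Genes above 0 in at least 3 libraries (11190 of 23420) were tested with limma 3.58.1 (R 4.3.3) on log2(value + 1), with an intensity trend, 5 group means in 1 fit and Benjamini-Hochberg adjustment per comparison. The procedure was tested on simulated data. Alternatives were the deposited scale, median ratio scaling, Rn45s in the total, pseudocounts of 0.5 and 3, 2 other filters, no trend, only the 2 groups, a replicate block and each library left out. Leaving the most abundant genes out of the total, and fitting only DZ, Fraction 3 and Fraction 2, were added after the data were seen. Positions are GRCm38 (GENCODE vM21).

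The 9 genes and all lists were chosen with earlier results of these data known. All 9 are named, with up to 2 genes per direction of smallest p among the calls of each pathway list and comparison, the 3 genes most alike to each, and sort markers. Cd74, Cstb, Ctsl and individual cell type markers were named after their values were seen. Some named results of the lists are not reported here.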

Additional observations from a re-analysis of the deposited data

How the results depend on the processing

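On the deposited scale the number of all genes called was 27 in Fraction 3 vs DZ (118 at equal totals), 301 in Fraction 2 vs Fraction 3 (77), 6183 in Fraction 1 vs Fraction 2 (1011) and 6380 in GC-PB vs Fraction 1 (4064), and of the 9 genes it called 1, 1 and 8 in the first 3 steps. In Fraction 2 vs Fraction 3 the count of all genes was also 45 with median ratio scaling, 152 among genes with a mean of at least 1, 189 with only the 2 groups and 193 with only DZ, Fraction 3 and Fraction 2. In Fraction 1 vs Fraction 2 it was 1533 with only the 2 groups. Leaving out each library in turn gave 40 to 96 calls in Fraction 3 vs DZ (1 to 2 of the 9 genes), 17 to 39 in Fraction 2 vs Fraction 3 and 551 to 683 in Fraction 1 vs Fraction 2; such fits have fewer samples. The count moved by over 1.5 times without each library but Fraction 3 replicate 1 in the first step, without each of the 6 in the second, and without each but Fraction 2 replicate 1 in the third. The lowest counts were without Fraction 3 replicate 3, Fraction 2 replicate 3 and Fraction 2 replicate 2, respectively. With the replicate number as a block, Fraction 2 vs Fraction 3 had 40 calls and Ctsc was called lower in GC-PB than in Fraction 1 (adjusted p = 0.0423). It changed no other call of the 9 genes. The libraries share only a number: 0 of 30 same-number pairs had a correlation over 0.1 (-0.14 to 0.061 over 1350 genes), and 3 of 15 libraries correlated best with their own number.

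Signs turned mostly for changes near 0 or on the deposited scale. As deposited, Fraction 3 vs DZ was -0.066 for Ctss, -0.043 for Ctsb and -0.038 for Ctsc, and Fraction 2 vs Fraction 3 was 0.078 for Ctsb and 0.014 for Ctsh. Fraction 1 vs Fraction 2 was 1.19 for Ctss, 0.70 for Ctsb, 0.45 for Ctsh, 1.09 for Ctsc, 1.01 for Lgmn and 0.28 for Cst3, and GC-PB vs Fraction 1 was -0.18 for Ctsz. Ctss was -6.34e-05 in Fraction 3 vs DZ with a pseudocount of 3, and Ctsc 0.0033 in Fraction 1 vs Fraction 2 with median ratio scaling. With 1 library left out, Fraction 3 vs DZ ran from -0.16 to 0.10 for Ctss, -0.13 to 0.10 for Ctsb, -0.19 to 0.076 for Ctsz and -0.029 to 0.077 for Ctsc. Fraction 2 vs Fraction 3 ran from -0.027 to 0.22 for Ctss, -0.090 to 0.17 for Ctsz and -0.13 to 0.17 for Ctsc, and Fraction 1 vs Fraction 2 from -0.22 to 0.089 for Ctsc and -0.31 to 0.050 for Lgmn. None of these left-out values was called. The cause was not tested. Low values limit Ctsd and Ctsc most, which rested on 0 to 20 and 3 to 30 steps per library.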
